A study of Homo sapiens with 9 samples.

Results

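Chemokines are small secreted proteins that draw white blood cells into tissue, and 7 chemokine genes that skin keratinocytes are known to make were followed here: CXCL1, CXCL2, CXCL3, CXCL8, CCL2, CCL5 and CCL20. They were chosen by gene symbol and are 7 of the 58336 genes in the deposited tables, and 5 of them (all but CXCL2 and CCL20) had enough counts to be tested. Messenger RNA was sequenced from HaCaT cells, a spontaneously immortalised line of human keratinocytes. The labels describe 9 samples in 3 groups of 3. In 2 groups the cells received low-dose photodynamic therapy with 5-aminolevulinic acid (ALA-PDT): 0.5 mmol per litre of the acid, which cells turn into the light-sensitive porphyrin protoporphyrin IX, then illumination at 635 ± 5 nm (red) with a dose of 3 J per square centimetre, with RNA taken after 12 h in one group and 48 h in the other. The control group had no treatment. All groups are 1 cell line in culture, with no immune cells added. Nothing says whether the replicates were separate cultures, so p-values measure the spread between these libraries.

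The library columns carry 3 stems: A1 to A3, B1 to B3 and Nc1 to Nc3. Nc was read as control, since it alone can shorten that word, and A and B were then the treated libraries by elimination. This is a reading of the names. No source ties A or B to 12 h or 48 h, so the treated groups are called stem A and stem B throughout, and no order in time is given between them. Library totals lay between 15337296 and 18028419 counts. The 13 keratinocyte markers used here summed to 77636 to 131802 counts per library. All 13 had counts in the table. So did all granulocyte, monocyte, T and NK cell, platelet, fibroblast and endothelial markers used, so having counts does not check the label. The keratin KRT5 had 5016 to 7991 counts per library, whereas its usual partner KRT14 had 2 to 20. Beta globin (HBB), a red cell transcript, had more than 500 counts in 5 libraries (A1, A2, B3, Nc1 and Nc2) and 2 to 7 counts in the other 4. Results for the chemokines are given with and without those 5 libraries where that changed a call. Without them A3, B1, B2 and Nc3 remain, so that the spread comes from B1 against B2 alone and the lone A and control libraries are assumed to vary in the same way.

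In skin, CXCL1, CXCL2, CXCL3 and CXCL8 (interleukin 8) bind the receptors CXCR1 or CXCR2 on neutrophils. CCL2 acts through CCR2 on monocytes, CCL5 on T cells, monocytes and eosinophils, and CCL20 through CCR6 on dendritic cells and T helper cells. Keratinocytes raise many of these transcripts when interleukin 1, TNF or toll-like receptor ligands switch on the transcription factor NF-kappaB, and proteins such as tristetraprolin (ZFP36) shorten the life of their mRNA.

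CXCL1, CXCL2, CXCL3 and CXCL8 lie in 1 cluster on chromosome 4, and their proximal promoters carry the same NF-kappaB core. The sequences below show that core, because the values that follow differ widely between genes that share it. Promoter sequences (250 bases before the RefSeq start) were found in the RefSeq table of GRCh38.p14 for 5 of the 7 genes, and CCL2 and CCL5 are named only. Each line is the gene's own strand, 5′ to 3′, and capitals mark the match to GGANNTTCC, searched on both strands.
CXCL1, chr4:73869305-73869333, plus strand: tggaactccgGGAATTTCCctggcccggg
CXCL2, chr4:74099254-74099282, minus strand: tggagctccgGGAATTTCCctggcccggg
CXCL3, chr4:74038749-74038777, minus strand: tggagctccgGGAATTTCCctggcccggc
CXCL8, chr4:73740468-73740496, plus strand: tgcaaatcgtGGAATTTCCtctgacataa

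The core began 78 bases before the RefSeq start in CXCL1 and CXCL3, 77 in CXCL2 and 91 in CXCL8. For CXCL2, CXCL3 and CXCL8 that start lies inside the gene span given further below. The printed windows of CXCL2 and CXCL3 therefore lie within those spans. All 4 genes held the same 9 letters. Of 35116 promoters of that length, 3.84% held GGANNTTCC. CCL20 held no such match in this window. The AP-1 motif TGANTCA was found in CXCL8 alone among the 5 and in 6.57% of all promoters. The GC box GGGCGG was found in CXCL1 and CXCL3 and in 42.6% of all promoters, and TATAAA in CXCL8 and CCL20 and in 10.7% of all. A match is a description of letters and does not show that a factor bound there.

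CCL2 had the largest difference of the tested members in stem A against control and between the stems, and it moved in opposite directions in the 2 treated stems. The gene (ENSG00000108691, chr17:34255218-34257203, plus strand, GRCh38) encodes the main chemokine for monocytes. It had 616, 517 and 495 counts in A1 to A3. In B1 to B3 it had 4386, 5142 and 6030 counts, and in Nc1 to Nc3 it had 2475, 3117 and 2748. No value of one group lay within the range of another: all A libraries were lowest, all B libraries highest and the controls between them.

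On the deposited FPKM, which scale counts by gene length and library size, CCL2 averaged 17.7 ± 0.362 in stem A, 146 ± 11.9 in stem B and 84.5 ± 15.7 in control (SD, n = 3 each). In stem A it was 4.73-fold lower than in control, a log2 fold change of -2.24 with a standard error (SE) of 0.15 (adjusted p = 2.01e-07, edgeR's quasi-likelihood test with Benjamini-Hochberg adjustment over 13845 genes). In stem B it was 1.74-fold higher than in control (log2 fold change 0.80, SE 0.14, adjusted p = 0.0026, same test). Stem B exceeded stem A 8.25-fold (log2 fold change 3.04, SE 0.15, adjusted p = 4.21e-09, same test). In each of these comparisons, all 3 libraries of one group lay on the same side of all 3 of the other.

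A gene counts as called where its adjusted p is under 0.05. In stem A against control, 1 of the 5 tested chemokines (CCL2) was called, against 2.72% of all genes tested. By direction, 0 of 5 rose, against 1.76% of all genes, and 1 of 5 fell, against 0.953%. In stem B against control, 2 of 5 (CCL2 and CCL5) were called, against 13.4% of all genes. CCL2 rose, as did 6.12% of all genes, and CCL5 fell, as did 7.24%. The balance of directions over all genes depends on the scaling: 847 rose and 1003 fell in stem B, and with library totals 750 rose and 492 fell. Between the stems, 4 of 5 were called, against 18.0% of all genes: 1 was higher in stem B (8.79% of all genes) and 3 were lower (9.25%). Over all genes, 1217 were higher and 1281 lower in stem B than in stem A, and with library totals 1346 were higher and 799 lower. A gene called lower in stem A and higher in stem B was uncommon: 21 of 13845 genes, or 0.152%, and CCL2 was one of them. Its difference between the stems ranked 15 from the highest, its difference of stem A from control ranked 18 from the lowest, and its difference of stem B from control ranked 771 from the highest.

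**Figure D1:**
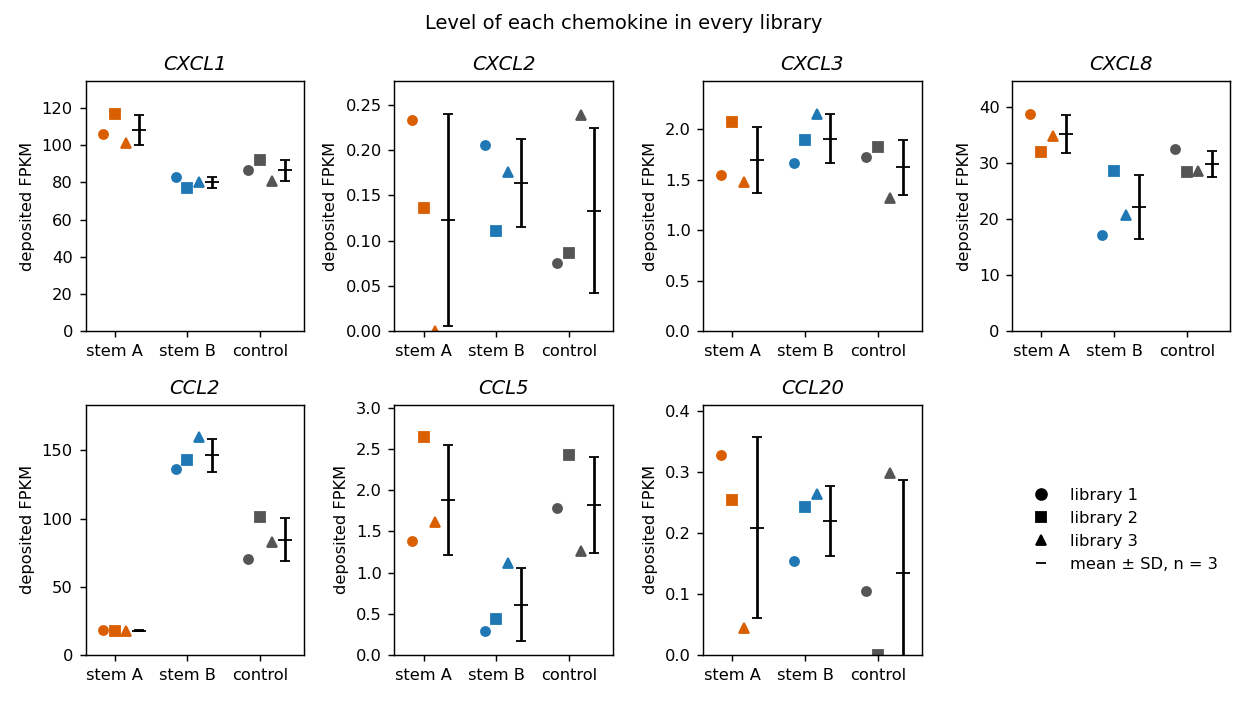
Deposited FPKM (linear axes from 0, 1 panel per gene) of the 7 chemokines in the 3 libraries of stem A, stem B and control; symbols are libraries 1 to 3 and bars are the mean ± SD, with any part below 0 not drawn. CCL2 separates into 3 levels, with means of 17.7, 146 and 84.5, while CXCL3 overlaps across all groups and CXCL2 and CCL20 stay under 0.4 FPKM.

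CCL2 in stem A was called under all 16 alternative settings run, with log2 fold changes between -2.36 and -2.10, and between the stems under all 14, between 2.99 and 3.13. In each set, 1 setting left A3 as the lone A library. In stem B against control, the log2 fold change lay between 0.68 and 0.97 under 15 alternatives. That call was lost in 1 of them, without the 5 libraries holding globin, where the value was 0.78 with adjusted p = 0.561 and Nc3 was the lone control. The mean of both stems against control was -0.72 (SE 0.12, adjusted p = 0.0084, edgeR), but it averages opposite directions and describes neither stem. It was the 1 call among the 5 members there, against 4.99% of all genes (1.39% higher and 3.6% lower). Over all genes 192 were higher and 499 lower in that comparison, and with library totals 36 were higher and 19 lower. That call was lost without Nc3 (adjusted p = 0.0688).

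Markers of other cells that make CCL2 were counted beside it. The 6 endothelial markers summed to 27 to 52 counts in stem A, 197 to 246 in stem B and 48 to 73 in control. In stem B most of that came from CDH5, which had 24 to 41 counts in stem A, 185 to 230 in stem B and 31 to 52 in control, while TEK was at 0 in all but 2 libraries and KDR had at most 4 counts. The 9 monocyte and macrophage markers summed to 14 to 42 in stem A, 49 to 114 in stem B and 22 to 104 in control. The 8 fibroblast markers summed to 27 to 195 in stem A, 38 to 65 in stem B and 48 to 70 in control. The part of such cells in the CCL2 values was not tested. In bulk RNA, fewer cells that express a gene and less of its RNA per cell cannot be told apart.

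The control libraries themselves differed in CCL2. Its FPKM was 70.0 in Nc1, 101 in Nc2 and 82.5 in Nc3, a spread beyond counting noise (chi-square test of 1 rate over the 3 libraries, adjusted p = 4.27e-51). That was common, since 56.8% of 13290 genes varied beyond counting noise among the controls by the same test. The 3 libraries of stem A differed far less, with 18.1, 17.6 and 17.4 FPKM.

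The neighbours of CCL2 on chromosome 17 were close to silent in every library. Within 200 kb on either side the annotation holds 17 genes. CCL2 alone passed the count filter, and 15 had a mean under 3 counts. CCL7, which also binds CCR2, had 2, 3 and 0 counts in stem A, 0, 4 and 2 in stem B and 0 in each control library. CCL8 had 2, 2 and 0 in stem A, 1, 3 and 0 in stem B and 1, 0 and 8 in control. CCL11, CCL13 and CCL1 had no more than 1 count in any library.

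Among 11907 protein-coding genes, TEF had the pattern most like that of CCL2 over the 9 libraries (Pearson r = 0.99 on log2 CPM), followed by OR2I1P (r = 0.98). TEF, a transcription factor of the PAR bZIP family, had 89, 106 and 75 counts in stem A, 602, 552 and 643 in stem B and 364, 331 and 374 in control. OR2I1P, an olfactory receptor locus, had 26, 17 and 15 counts in stem A, 167, 189 and 252 in stem B and 135, 95 and 134 in control. The 9 points share 3 groups, so these r values describe the group pattern.

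CXCL1, which draws neutrophils, was the most abundant member per length in stem A and changed little against control. The gene (ENSG00000163739, chr4:73869393-73871242, plus strand) had 2354, 2237 and 1883 counts in A1 to A3, 1737, 1807 and 1982 in B1 to B3, and 1997, 1848 and 1752 in Nc1 to Nc3. Its FPKM averaged 108 ± 8.04 in stem A, 80.0 ± 2.90 in stem B and 86.3 ± 5.65 in control (SD, n = 3 each). All A libraries, from 101 to 117 FPKM, lay above all others, while stem B and control overlapped.

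CXCL1 in stem A against control had a log2 fold change of 0.34 (SE 0.12, adjusted p = 0.118, edgeR), which did not pass the test. Same-numbered libraries of stem A and control deviated together, and a fit with the number as a block was added after that was seen. The labels give no such pairing, so the p-values of that fit rest on a pairing taken from the same values. With the number as a block and only these 6 libraries, CXCL1 was called at 0.31 (SE 0.06, adjusted p = 0.0013, edgeR), in a fit that called 34.8% of 13216 genes. In stem B against control it differed by -0.10 (SE 0.12, adjusted p = 0.616). Stem B was lower than stem A by a log2 fold change of -0.44 (SE 0.12, adjusted p = 0.0171, edgeR), with no overlap in FPKM. That call was lost without A2, B2 or B3 (adjusted p = 0.0762, 0.0717 and 0.0723) and without the 5 libraries holding globin (-0.34, adjusted p = 0.693).

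CXCL8, the best known human neutrophil chemokine, was lower in stem B than in stem A. It (ENSG00000169429, chr4:73740506-73743716, plus strand) had 1511, 1071 and 1133 counts in A1 to A3, 633, 1171 and 896 in B1 to B3, and 1316, 998 and 1088 in Nc1 to Nc3. Per length it averaged 35.1 ± 3.44 FPKM in stem A, 22.1 ± 5.76 in stem B and 29.8 ± 2.38 in control (SD, n = 3 each). The B libraries spread most, at 17.2, 28.4 and 20.7 FPKM, and B2 lay within the range of the controls.

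Between the stems, CXCL8 had a log2 fold change of -0.67 (SE 0.16, adjusted p = 0.0092, edgeR), with every B library under every A library in FPKM, though not in raw counts. It was -0.60 with adjusted p = 0.287 without the 5 libraries holding globin. In stem B against control it was -0.42 (SE 0.16, adjusted p = 0.0898), not called with all libraries, and without B2 it was -0.63 (adjusted p = 0.0146, edgeR). In stem A against control it was 0.25 (SE 0.16, adjusted p = 0.352), and 0.23 with adjusted p = 0.013 in the paired fit of stem A and control.

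CXCL3 did not pass the test in any comparison. It (ENSG00000163734, chr4:74036589-74038807, minus strand) had 59, 68 and 47 counts in A1 to A3, 60, 76 and 91 in B1 to B3, and 68, 63 and 49 in Nc1 to Nc3. The 3 groups overlapped. Its log2 fold change was 0.08 (SE 0.22, adjusted p = 0.854) in stem A against control and 0.25 (SE 0.22, adjusted p = 0.482) in stem B against control. Between the stems it was 0.16 (SE 0.22, adjusted p = 0.639, edgeR).

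CXCL2 was near the limit of detection. It (ENSG00000081041, chr4:74097035-74099293, minus strand) had 6, 3 and 0 counts in A1 to A3, 5, 3 and 5 in B1 to B3, and 2, 2 and 6 in Nc1 to Nc3. A library with no count allows up to 3, so these values do not separate the groups, and no fold change is given. CXCL1, CXCL2 and CXCL3 are close copies. Their coding sequences, of 324 bases each, match at 93.5% of bases between CXCL1 and CXCL2, 90.7% between CXCL1 and CXCL3 and 94.4% between CXCL2 and CXCL3, so the division of reads among them is uncertain.

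The cluster on chromosome 4 had most of its counts in CXCL1 and CXCL8. Between CXCL8 and CXCL2 the annotation holds 16 genes, of which 3 passed the count filter. CXCL6 had 1 count in all, CXCL5 had 0 to 6 per library, and the platelet genes PF4 and PPBP had 0 to 6 and 0 to 13. Per length, CXCL1 exceeded CXCL3 within a library 64.4 ± 7.0 times in stem A, 42.5 ± 6.34 times in stem B and 53.9 ± 6.33 times in control (SD, n = 3 each).

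**Figure D2:**
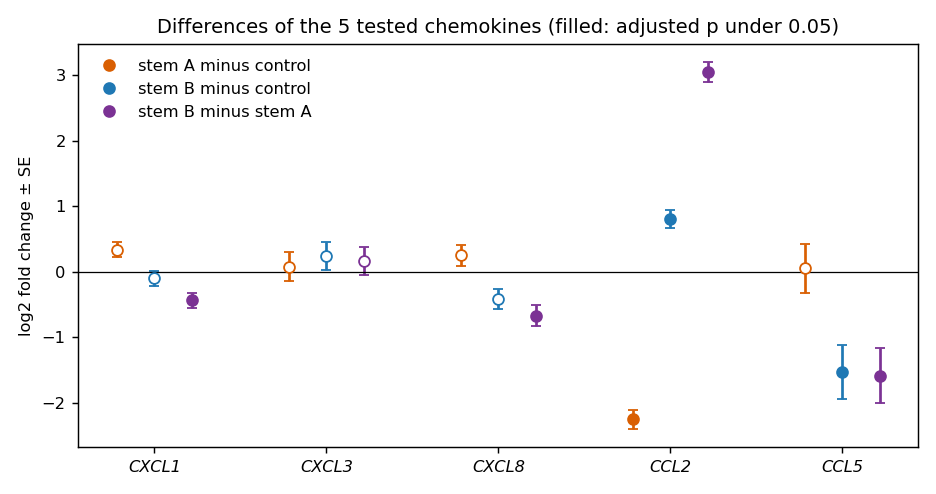
Log2 fold change ± SE (edgeR) of the 5 tested chemokines for stem A minus control, stem B minus control and stem B minus stem A; filled points have an adjusted p under 0.05. CCL2 lies at -2.24, 0.80 and 3.04, and CXCL1, CXCL8 and CCL5 are each lower in stem B than in stem A.

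The makeup of the summed chemokine FPKM differed between groups within each library, where no scaling between libraries enters. CCL2 made up 10.8% ± 0.426 of the 7 genes' sum in stem A, 58.1% ± 1.92 in stem B and 41.2% ± 4.38 in control (SD, n = 3 each). CXCL1 made up 65.5% ± 2.33, 31.9% ± 2.40 and 42.3% ± 2.25 in the same groups, and CXCL8 21.4% ± 2.46, 8.79% ± 2.22 and 14.7% ± 2.17. Shares of a single sum are tied, so a difference in CCL2 alone moves the CXCL1 and CXCL8 shares the other way. With all libraries in the fit, neither CXCL1 nor CXCL8 was called against control. The order by level was CXCL1, CXCL8, CCL2 in all A libraries and CCL2, CXCL1, CXCL8 in all B libraries. In control, CCL2 led in Nc2 and Nc3 and CXCL1 in Nc1, so CCL2 and CXCL1 were not separated beyond the spread between control libraries.

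The ratio of CCL2 to CXCL1, in FPKM within a library, was 0.171, 0.151 and 0.172 in A1 to A3. It was 1.65, 1.86 and 1.99 in B1 to B3, and 0.809, 1.10 and 1.02 in Nc1 to Nc3. The groups did not overlap. The ratio of CXCL8 to CXCL1 was 0.327 ± 0.0484 in stem A, 0.278 ± 0.0828 in stem B and 0.346 ± 0.0346 in control, with overlapping values.

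**Figure D3:**
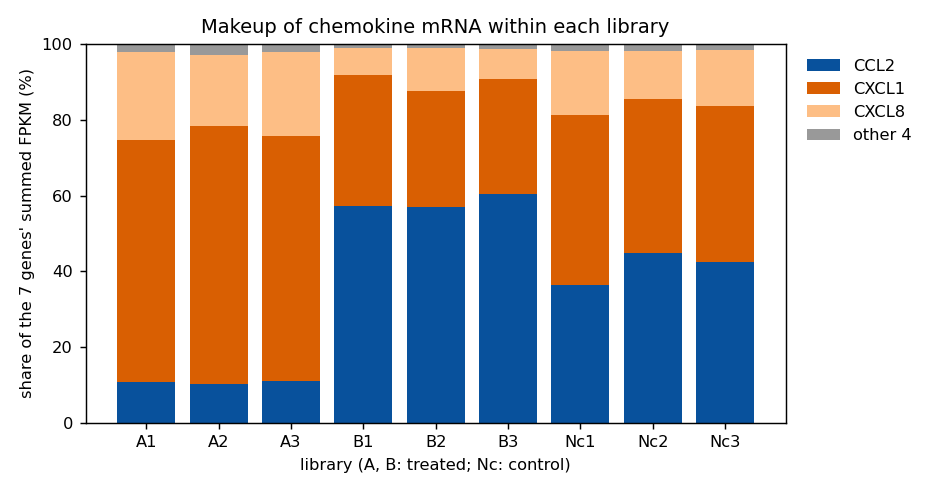
Share (%) of the 7 chemokines' summed FPKM taken by CCL2, CXCL1, CXCL8 and the other 4 in each library of stem A, stem B and control. CCL2 takes 10.3% to 11.1% in the A libraries, 56.9% to 60.4% in the B libraries and 36.3% to 44.8% in the control libraries.

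CCL5, also called RANTES, was low in all libraries and lower in stem B. It (ENSG00000271503, chr17:35871491-35880793, minus strand) had 36, 59 and 35 counts in A1 to A3, 7, 12 and 32 in B1 to B3, and 48, 57 and 32 in Nc1 to Nc3. The raw counts of B3 and Nc3 were equal, and after scaling every B library was still under every control and every A library. In FPKM it averaged 1.88 ± 0.669 in stem A, 0.612 ± 0.440 in stem B and 1.82 ± 0.585 in control (SD, n = 3 each).

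CCL5 in stem B was 2.88-fold lower than in control (log2 fold change -1.53, SE 0.42, adjusted p = 0.0259, edgeR) and lower than in stem A (-1.58, SE 0.42, adjusted p = 0.0165, edgeR). In stem A against control it was 0.06 (SE 0.37, adjusted p = 0.949). The call against control rested on single libraries: it was lost without Nc2 (-1.25, adjusted p = 0.0832), without B1 (-1.19, adjusted p = 0.0839) and without B2 (-1.32, adjusted p = 0.0836). It was -2.28 (adjusted p = 0.0136) without B3. The call against stem A was lost without A2, B1 or B2 (adjusted p = 0.0888, 0.0587 and 0.0875) and was -2.34 (adjusted p = 0.004) without B3.

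CCL5 is also made by T and NK cells, and the libraries with globin are set beside it for that reason. HBB had 519, 1115 and 7 counts in A1 to A3, 4, 6 and 7550 in B1 to B3, and 6700, 6665 and 2 in Nc1 to Nc3. B3, the B library with globin, had the most CCL5 of that stem, and Nc3, the control without it, had the least of the controls. In stem A, A2, with the most globin, had the most CCL5. A3, without globin, had the fewest counts, 1 under A1. In FPKM, however, A1 was the lowest of stem A, at 1.39 against 1.61 in A3. Without Nc1 and Nc2, CCL5 in stem B against control was -1.02 (adjusted p = 0.384), and without all 5 libraries holding globin it was -1.76 (adjusted p = 0.404). Between the stems it was -2.12 without those 5 (adjusted p = 0.0413), with A3 as the lone A library.

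The 13 T and NK cell markers summed to 843, 614 and 656 counts in A1 to A3, 424, 485 and 407 in B1 to B3, and 1026, 727 and 779 in Nc1 to Nc3. This order was not that of globin: A2 and B3, with the most globin in their stems, had the lowest sums. Among the controls, Nc1 with globin had the highest sum and Nc2 with globin the lowest. Most of each sum was IL7R, which had 551 to 803 counts in stem A, 252 to 399 in stem B and 622 to 913 in control. The order of the sums therefore need not be that of the other markers. The T cell receptor subunit genes CD3D, CD3E and CD3G had 0 to 14 counts, and none of the 13 was at 0 in every library. The 9 granulocyte markers summed to 92, 102 and 55 counts in A1 to A3, 33, 70 and 420 in B1 to B3, and 371, 345 and 28 in Nc1 to Nc3. In each group the libraries with globin had higher granulocyte sums than those without. The same held for the 9 monocyte and macrophage markers. They summed to 42, 38 and 14 in A1 to A3, 49, 57 and 114 in B1 to B3, and 104, 74 and 22 in Nc1 to Nc3. The part of blood transcripts in the CCL5 values was not tested further.

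**Figure D4:**
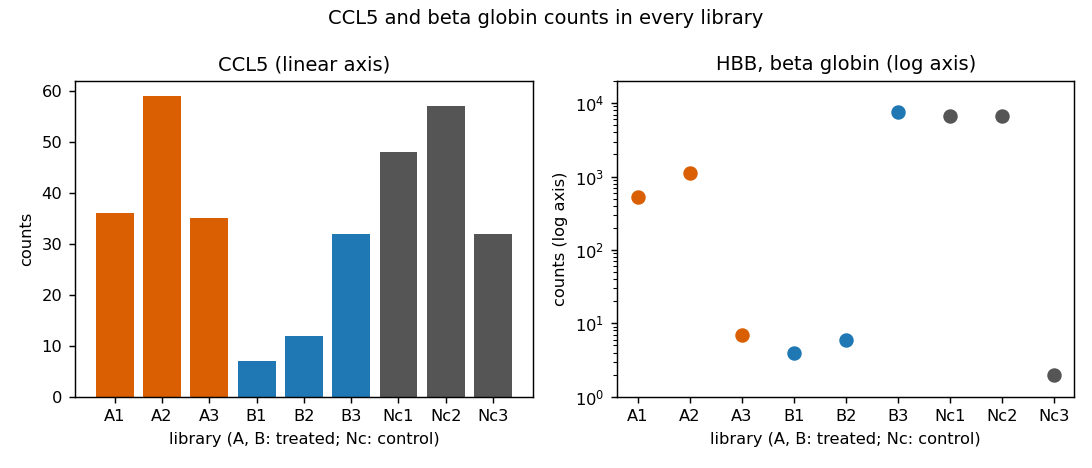
Counts of CCL5 (left, bars, linear axis from 0) and of beta globin HBB (right, points, log axis) in each library of stem A, stem B and control. CCL5 is lowest in B1 and B2, at 7 and 12 counts, and B3, with 32, is the B library with 7550 HBB counts.

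CCL20, the ligand of CCR6, was near the limit of detection. It (ENSG00000115009, chr2:227805739-227817564, plus strand) had 9, 6 and 1 counts in A1 to A3, 4, 7 and 8 in B1 to B3, and 3, 0 and 8 in Nc1 to Nc3. The groups overlapped, and no fold change is given. Per length the 7 genes fell into 3 tiers in every library: CCL2, CXCL1 and CXCL8 from 17.2 to 160 FPKM, CXCL3 and CCL5 from 0.286 to 2.64, and CXCL2 and CCL20 from 0 to 0.329. Within the middle tier, CCL5 was under CXCL3 in all 3 B libraries, and their order varied among the A and the control libraries.

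The other chemokine ligands were mostly undetected. Of 26 listed, 5 passed the count filter and 17 had a mean under 3 counts. Against control, 0 of 5 were called in stem A and 0 of 5 in stem B, against 2.72% and 13.4% of all genes. Between the stems 0 of 5 were called, against 18.0%. Their median log2 fold change was -0.54 in stem A and -0.03 in stem B against control, against 0.01 and -0.0020 over all genes. CXCL16, a membrane-bound ligand of CXCR6, had the most, with 1222, 1247 and 1248 counts in stem A, 1495, 1196 and 1530 in stem B and 1301, 1342 and 1450 in control. Its log2 fold changes were -0.01 and -0.03 against control (SE 0.14 each). CCL22, CCL26 and CCL28 had 4 to 56 counts per library, and their log2 fold changes against control lay between -0.92 (CCL26 in stem A, adjusted p = 0.19) and 0.64 (CCL28 in stem B, adjusted p = 0.3). CXCL10, the other ligand tested and named after its values were seen, had the largest log2 fold change of the 5, with -1.43 in stem A (SE 0.79, adjusted p = 0.293) and -0.75 in stem B (SE 0.70, adjusted p = 0.512). It had 5, 4 and 0 counts in stem A, 1, 4 and 12 in stem B and 12, 11 and 4 in control.

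Of 22 chemokine receptors, 6 were tested. Against control, 0 were called in stem A and 1 in stem B, against 2.72% and 13.4% of all genes. ACKR3, an atypical receptor that takes up CXCL12 without classical signalling, had 428, 428 and 362 counts in stem A, 1197, 1204 and 1387 in stem B and 503, 603 and 509 in control. It rose in stem B against control by a log2 fold change of 1.14 (SE 0.13, adjusted p = 0.00025, edgeR), and its values did not overlap. In stem A it was -0.29 (SE 0.14, adjusted p = 0.227), and -0.30 with adjusted p = 0.0123 in the paired fit. CXCR2, the neutrophil receptor of CXCL1 and CXCL8, had 8, 8 and 0 counts in stem A, 3, 5 and 32 in stem B and 37, 39 and 1 in control, high in 3 of the libraries with globin. CCR3 and CCR7 had 4 to 23 counts and were not called. The receptors' median was -0.45 in stem A and -0.15 in stem B against control.

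NF-kappaB subunits and kinases were expressed, and the number called in stem A depended on the pairing. All 15 genes were tested, and 0 were called in stem A and 1 in stem B, against 2.72% and 13.4% of all genes. The 1 called was TAB2, an adaptor of the kinase TAK1 (log2 fold change -0.50, SE 0.15, adjusted p = 0.0330, edgeR). That call was lost without Nc1, Nc3, B2 or B3 (highest adjusted p = 0.168). Of the subunits, NFKB1 was -0.16 in stem A and -0.26 in stem B, and RELA 0.26 and -0.05 (SE 0.12 each), none called. The list's median was -0.16 in stem A and -0.21 in stem B. In the paired fit of stem A and control, 4 of 15 were called higher and 7 lower, against 34.8% of all genes called there in either direction.

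Among 16 inhibitors and feedback genes of NF-kappaB, 0 rose and 3 fell in stem A against control. Over all genes, 1.76% rose and 0.953% fell. BIRC3, a ubiquitin ligase induced by TNF, had 250, 145 and 216 counts in stem A, 317, 466 and 344 in stem B and 606, 398 and 470 in control. It fell in stem A by 1.14 on the log2 scale (SE 0.18, adjusted p = 0.0031, edgeR). SOD2, the mitochondrial superoxide dismutase, had 1625, 1076 and 1089 counts in stem A, 2560, 4171 and 3660 in stem B and 3455, 2061 and 2700 in control. It fell in stem A by 0.99 (SE 0.17, adjusted p = 0.0045, edgeR), with no overlap. TNFAIP2, a gene induced by TNF, had 3740, 3715 and 3552 counts in stem A, 10570, 9510 and 11830 in stem B and 7183, 6636 and 7810 in control.

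TNFAIP2 was, like CCL2, called lower in stem A and higher in stem B. Its log2 fold change was -0.84 in stem A (SE 0.13, adjusted p = 0.0022) and 0.48 in stem B (SE 0.13, adjusted p = 0.0214, edgeR). The call in stem B was lost without Nc1, Nc3 or B3 (adjusted p = 0.0607, 0.052 and 0.0994). NFKBIA, which encodes the inhibitor IkappaB-alpha, was -0.37 in stem A (SE 0.12, adjusted p = 0.0996) and 0.16 in stem B (SE 0.12, adjusted p = 0.387), and its stems differed by 0.53 (SE 0.12, adjusted p = 0.0062, edgeR). TNFAIP3, which encodes the deubiquitinase A20, was 0.16 and 0.15 (SE 0.13 each), not called. In stem B, 1 gene rose (TNFAIP2) and 1 fell (BIRC2), against 6.12% of all genes higher and 7.24% lower. BIRC2 was at -0.52 (SE 0.15, adjusted p = 0.0325, edgeR), a call lost without Nc1, Nc3, B1 or B3 (highest adjusted p = 0.161). The list's median was -0.10 in stem A and 0.09 in stem B. In the paired fit of stem A and control, 2 of 16 were called higher and 5 lower, against 34.8% of all genes called in either direction. NFKBIA was among those called lower (-0.39, adjusted p = 0.00033, edgeR).

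**Figure D5:**
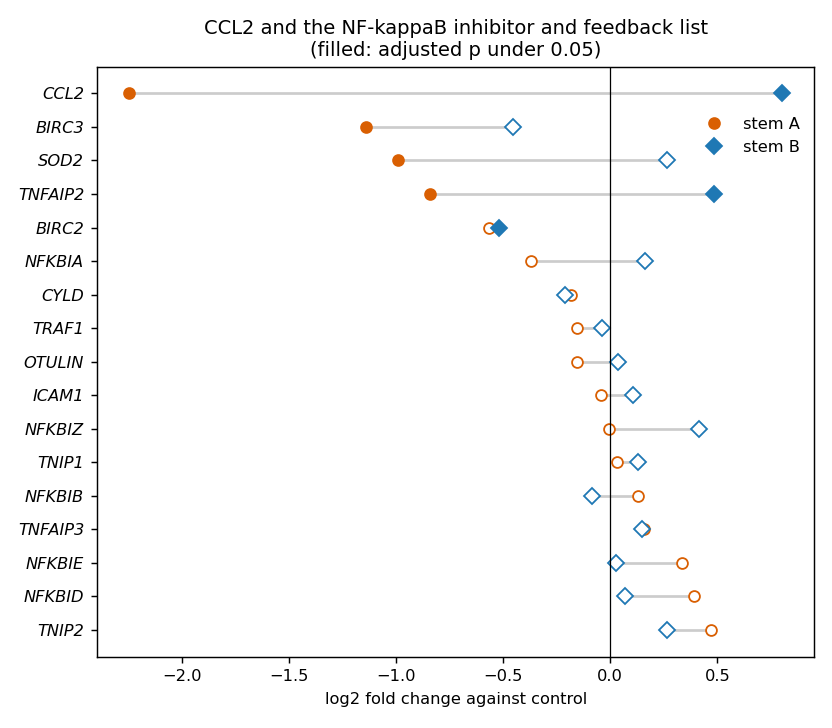
Log2 fold change against control in stem A (circles) and stem B (diamonds) of CCL2 and the 16 NF-kappaB inhibitor and feedback genes; filled symbols have an adjusted p under 0.05 in edgeR. CCL2 and TNFAIP2 are filled on both sides of 0, and BIRC3 and SOD2 are filled in stem A only.

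Of 17 cytokines, growth factors and antagonists linked to chemokine induction, 10 were tested. In stem A 2 rose and 0 fell, against 1.76% of all genes higher and 0.953% lower. In stem B 3 rose and 0 fell, against 6.12% higher and 7.24% lower, and with library totals 1 rose. CSF2, which encodes the growth factor GM-CSF, had 536, 713 and 560 counts in stem A, 194, 181 and 271 in stem B and 266, 246 and 264 in control. It rose in stem A, where CCL2 fell, by a log2 fold change of 1.36 (SE 0.17, adjusted p = 0.00032, edgeR). In stem B CSF2 was -0.35 (SE 0.17, adjusted p = 0.183, edgeR), not called. LIF rose in stem A by 0.55 (SE 0.13, adjusted p = 0.0294), a call lost without Nc1, Nc3, A2 or A3 (highest adjusted p = 0.204).

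The genes called in stem B were CSF3, IL1RN and IL36RN. CSF3, which encodes G-CSF, had 6, 13 and 4 counts in stem A, 8, 18 and 13 in stem B and 4, 3 and 3 in control. Its log2 fold change in stem B was 1.84 (SE 0.57, adjusted p = 0.0427), and the call was lost without any one library except B1 (highest adjusted p = 0.131). IL1RN, the antagonist of interleukin 1, rose by 0.60 (SE 0.13, adjusted p = 0.0097), a call lost without B3 (adjusted p = 0.0623). IL36RN, the antagonist of interleukin 36, rose by 0.77 (SE 0.23, adjusted p = 0.0388), a call lost without Nc1, Nc2, Nc3, B2 or B3 (highest adjusted p = 0.23).

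IL1A, IL1B and TNF, which trigger chemokine expression, were not called with all 9 libraries in 1 fit. IL1A was -0.34 in stem A and -0.36 in stem B (SE 0.17 each). In the paired fit of stem A and control IL1A was called lower (-0.35, adjusted p = 0.0011, edgeR), beside CSF2 and LIF, which were called higher. IL1B was 0.09 in stem A and 0.18 in stem B (SE 0.13 each). TNF did not pass the count filter, with 8, 8 and 6 counts in stem A, 2, 9 and 15 in stem B and 9, 8 and 1 in control. The list's median was 0.15 in stem A and 0.30 in stem B.

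Receptors and adaptors upstream of NF-kappaB numbered 20, of which 18 were tested. In stem A 0 rose and 2 fell, against 1.76% of all genes higher and 0.953% lower. TLR3, the sensor of double-stranded RNA, fell by 1.07 (SE 0.23, adjusted p = 0.0201, edgeR). IFNGR1, a subunit of the interferon gamma receptor, fell by 0.82 (SE 0.15, adjusted p = 0.0089, edgeR). TLR3 lost its call without Nc1, Nc2, A2 or A3 (highest adjusted p = 0.151), and IFNGR1 without A2 or A3 (adjusted p = 0.0797 and 0.051). In stem B 1 rose and 0 fell, against 6.12% of all genes higher and 7.24% lower. MYD88, the adaptor of interleukin 1 and toll-like receptors, rose by 0.45 (SE 0.11, adjusted p = 0.0165, edgeR). That call was lost without Nc3 or B3 (adjusted p = 0.0668 and 0.0765). The list's median was 0.10 in stem A and -0.16 in stem B. In the paired fit of stem A and control, 2 of 18 were called higher and 5 lower, against 34.8% of all genes called.

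Of 14 regulators of chemokine mRNA decay, 2 rose and 0 fell in stem A, against 1.76% of all genes higher and 0.953% lower. In stem B 0 were called, against 13.4% of all genes. ZFP36, tristetraprolin, had 393, 400 and 385 counts in stem A, 226, 261 and 325 in stem B and 282, 246 and 307 in control. It rose in stem A by a log2 fold change of 0.63 (SE 0.14, adjusted p = 0.0202, edgeR), and all A libraries exceeded all others. ZFP36L1, a relative that also binds AU-rich elements, rose in stem A by 0.56 (SE 0.12, adjusted p = 0.0178, edgeR). Both calls were lost when counts were scaled by library totals. ZFP36 also lost its call without any one library except A1 (highest adjusted p = 0.133), and ZFP36L1 without Nc2, Nc3, A2 or A3 (highest adjusted p = 0.101). The list's median was 0.11 in stem A and -0.07 in stem B. In the paired fit of stem A and control, 4 of 14 were called higher and 2 lower, against 34.8% of all genes called.

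For the other members, the gene most like each over the 9 libraries was PMM2 for CXCL1 (Pearson r = 0.97 on log2 CPM), MBOAT2 for CXCL8 (0.96), CCDC65 for CXCL3 (0.95) and GCFC2 for CCL5 (0.95), each out of 11907 protein-coding genes. PMM2, a phosphomannomutase of glycoprotein synthesis, had 398, 398 and 345 counts in stem A, 307, 322 and 361 in stem B and 351, 325 and 335 in control. MBOAT2, a membrane-bound acyltransferase, had 1059, 718 and 886 counts in stem A, 335, 576 and 451 in stem B and 837, 594 and 647 in control. Like CXCL8, it was lowest in B1 and highest in A1.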

How the data were processed

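Per the labels' protocols, TRIzol RNA was read as paired ends of 150 bases. FastQC, HISAT2, StringTie and the build GRCh38 appear in the submitters' processing notes, with no versions. Not given in the sources used here are the annotation release, the strand setting and how reads with several matches were counted. The authors deposited raw counts per gene and FPKM, 9 libraries each. On these values each FPKM equalled the count divided by gene length and by a library constant of 0.936 to 1.07 times the library total. The number of per-sample columns left unused was 0.

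Counts were tested in R 4.3.3 with edgeR 4.0.16 (filterByExpr with a minimum count of 10, TMM scaling, quasi-likelihood test), all 9 libraries in 1 fit of 3 stems, Benjamini-Hochberg adjustment over 13845 genes, threshold 0.05. Alternatives used DESeq2 1.42.0, limma 3.58.1 on log2(FPKM + 0.1), library totals, no filter, replicate blocks and leaving out libraries. Control libraries were compared by a chi-square test where the mean count reached 10. Likeness used log2 CPM with a prior count of 2. Other steps ran in Python 3.11.15.

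Same-numbered libraries of stem A and control deviated together from their group means (correlations 0.81, 0.58 and 0.49 for numbers 1 to 3 over 9729 genes). Correlations of stem B with control were -0.52, -0.59 and -0.31, and of stem B with stem A -0.49, -0.60 and -0.34. The pairing of stem A with control comes from these values, not from the labels. Calls of the paired fit therefore use a pairing chosen from the data they test.

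The members, lists and markers were chosen with earlier results of these data known. Named genes were the members, from each list up to 5 called genes with the largest change, a fixed set of NF-kappaB, cytokine and decay genes, and listed chemokines or receptors with a mean of at least 10 counts. Genes that the text gives beside these, as neighbours or markers, were added after their values were seen. SOD2 is on 2 rows, and the row with more counts was used. On simulated counts for stem A against control (13644 genes), 47 of 100 genes changed 1.5-fold and 91 of 100 changed 2-fold were recovered, with 4 others called. Those counts were drawn independently for each library, without the shared deviations of same-numbered libraries. The figures therefore need not hold for the deposited counts. Counting limits (3 counts for a count of 0) cover counting error only.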

Additional observations from a re-analysis of the deposited data

Results flagged for a closer look

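The 2 treated stems were tested directly as stem B minus stem A (edgeR, adjusted p under 0.05). They differed in 4 of the 5 tested chemokines, against 18.0% of all genes. The log2 fold change was 3.04 for CCL2, -0.44 for CXCL1, -0.67 for CXCL8 and -1.58 for CCL5. The CXCL1 call was lost without A2, B2 or B3, and the CCL5 call without A2, B1 or B2. CCL2 was lower in all 3 A libraries and higher in all 3 B libraries than in every control library.

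The same test separated the stems in 15 genes of the lists, 8 higher and 7 lower in stem B. Of 5 other ligands 0 were called, of 6 receptors 1 higher, of 15 subunits and kinases 3 lower, and of 16 feedback genes 5 higher. Of 10 cytokines 1 was lower, of 18 upstream genes 1 was higher and 1 lower, and of 14 decay regulators 1 higher and 2 lower. Over all genes, 8.79% were higher and 9.25% lower. The log2 fold change was 1.43 for ACKR3, 0.68 for BIRC3, 0.62 for IFNGR1, 0.53 for NFKBIA, 1.25 for SOD2 and 1.32 for TNFAIP2, all higher in stem B. It was -1.71 for CSF2, -0.76 for ZFP36 and -0.57 for ZFP36L1, all lower in stem B. The other 6, named after their values were seen, were NFKBIZ (0.42) and TIA1 (0.72), higher in stem B, and RELB (-0.48), IKBKG (-0.68), TRAF2 (-0.40) and IRAK1 (-0.52), lower in stem B. BIRC3 and IFNGR1 lost this call without A2 (adjusted p = 0.0859 and 0.0554) or B2 (0.089 and 0.0511). Since 18.0% of all genes differed between the stems, such calls are not unusual here, singly or as a count over the lists. Which stem is 12 h and which 48 h is not known, so none of these is a change over time.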

How the results depend on the processing

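Genes called in stem A against control numbered 376, and 794 with DESeq2, 992 with no filter, 226 with limma, 244 with a replicate block over 9 libraries, 4601 with the replicate block in stem A and control alone, 37 without Nc1 and Nc2, and 30 without the 5 libraries holding globin. That paired fit also called CXCL1 (0.31) and CXCL8 (0.23), 3 members in all; the 9-library block changed no member's call. For stem B the 1850 genes became 75 and 57 in the last 2 settings, with 1 and 0 members called. There CCL5 was -1.02 and -1.76, and without the 5 libraries CCL2 was 0.78 and CXCL1 turned to 0.0047. Stem B minus stem A fell to 460 genes and 2 members, with CXCL1 -0.34 and CXCL8 -0.60. Those 2 settings, like the paired fit of stem A and control, were added after seeing the data. Those 2 leave few libraries, and whether that or the choice of libraries removed lowered the calls was not tested.

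For both stems against control, 691 genes became 1248 with DESeq2, 1480 with no filter, 36 with limma, 55 with library totals, and 3 and 13 without those libraries, where CCL2 was -0.71 and -0.73 and 0 members were called. With no filter, CCL5 (-0.78) made 2 members, and CXCL8 in stem B (-0.46) was called. With library totals, CXCL8 varied among controls (adjusted p = 5.64e-08), the other ligands' median in stem B was 0.00092, and called genes became 0 (subunits), 1 (feedback) and 1 (cytokines) in stem B and 0 (decay regulators) in stem A. The causes were not tested.

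Leaving out 1 library gave 101 to 910 genes for stem A (101 without A2, 114 without A3, 124 without Nc3, 209 without Nc1, 910 without A1), 489 to 1708 for stem B (489 without B3, 868 without Nc3, 1139 without Nc1), 1160 to 2732 between stems, 7 to 1253 for both stems, and 2437 to 7039 varying among controls. Members called ranged from 1 to 2 in stem B, 2 to 4 between stems and 0 to 1 for both stems. CXCL3 ranged from -0.090 to 0.17 and CCL5 from -0.27 to 0.30 in stem A, both below 0 without A2 or Nc3. In stem B, CXCL8 ranged from -0.63 to -0.25 and CCL5 from -2.28 to -1.19. Between stems, CXCL1 ranged from -0.49 to -0.37 and CCL5 from -2.34 to -1.22. CCL2 for both stems ranged from -0.84 to -0.57. Among controls the adjusted p ranged from 0.000533 to 0.445 for CXCL1, 0.0426 to 0.976 for CXCL8 and 0.0167 to 0.275 for CCL5.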
